A study of Mus musculus with 9 samples.

Results

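The motile cilium is moved by its axoneme, a ring of doublet microtubules around a central pair, and the structural genes of this machine were examined in the ventricular zone of newborn mice with mutant alleles of Prdm16. The set was put together by gene name from what is known of the cilium, with earlier results of these data known. It holds 33 genes that encode parts of the axoneme or proteins bound to it. Each was represented by the probe set that carried its symbol alone and had the highest mean over the arrays, and all 33 were found among the 19938 genes measured in this way. RNA was measured on 9 Affymetrix Mouse Gene ST 1.0 arrays, 3 per genotype. The genotypes were Prdm16LacZ/LacZ (KO), in which both copies carry the LacZ allele, Prdm16LacZ/+ (HET) and Prdm16+/+ (WT). All pups were newborn and of the C57BL/Ka strain, and the dissected ventricular zone cells were neither cultured nor treated before lysis. The labels do not state whether each array was a different animal, so the p-values speak of array-to-array spread alone, some of which may be technical. The structure of the LacZ allele, the sex of the pups and their litters are not given in the sources used here.

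Outer and inner dynein arms are the motors that slide neighbouring doublets past each other. Radial spokes and the central pair relay signals that order the motors into a beat, ruler proteins set the spacing at which arms and spokes attach, and tektins and other inner proteins run inside the doublet walls. In the brain these genes are switched on together as radial glia of the ventricular zone give rise to multiciliated ependymal cells around and after birth, under the regulator Foxj1 and factors of the RFX family, and the beating cilia later move cerebrospinal fluid.

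The deposited values were log2 intensities, with array medians between 5.80 and 5.92. Prdm16 itself read 5.69, 6.41 and 6.17 on the KO arrays, 6.995, 7.34 and 6.998 on the HET arrays, and 7.62, 7.57 and 7.23 on the WT arrays. Every KO array lay below every HET and WT array, and Prdm16 fell by 1.38 on the log2 scale in KO against WT (SE 0.18), with an adjusted p of 0.0102 by limma and the Benjamini-Hochberg method. That call was lost without WT replicate 1 (adjusted p = 0.0757) or WT replicate 2 (adjusted p = 0.0689), and with only the KO and WT arrays in the fit (adjusted p = 0.0800). The mean level of 12 markers of radial glia lay between 8.22 and 8.50 on every array. That of 12 neuron markers lay between 8.59 and 9.02 and was the higher of both on every array. These levels alone do not show which cells the labelled tissue held. The RNA Xist read between 10.04 and 11.002 on KO replicates 2 and 3, HET replicate 1 and WT replicate 1, and between 4.42 and 4.99 on the other 5 arrays. The arrays of a genotype thus differed in Xist, and the genotypes were not balanced for it.

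Most axoneme genes read lower in KO than in WT, and by itself no gene of the set passed the test over all genes in that comparison. Of the 33 genes, 29 had a KO mean below the WT mean, with a median log2 change of -0.20 and a range of -1.18 to 0.10, against a median of 0.01 and 47.3% below 0 over all genes. Among the 26 genes with a mean below the median array level, 25 were lower in KO than in WT. Among the 7 above it, 4 were lower and 3 higher, with a median of -0.15 and a range of -1.18 to 0.07. The counts lower in KO minus HET were 22 of the 26 and 3 of the 7. None of the 33 passed in KO against WT by limma with Benjamini-Hochberg (smallest adjusted p = 0.0544), where 0.451% of all genes did in either direction. At an unadjusted p under 0.05, 17 were lower and 0 higher, where 2.87% of all genes were lower and 3.28% higher. In 18 of the 33 every KO array lay below every WT array, and in 0 every KO array lay above, against 4.34% and 5.63% of all genes. Because each array holds RNA of the whole dissected zone, fewer cells of a type and less RNA per cell cannot be told apart.

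**Figure D1:**
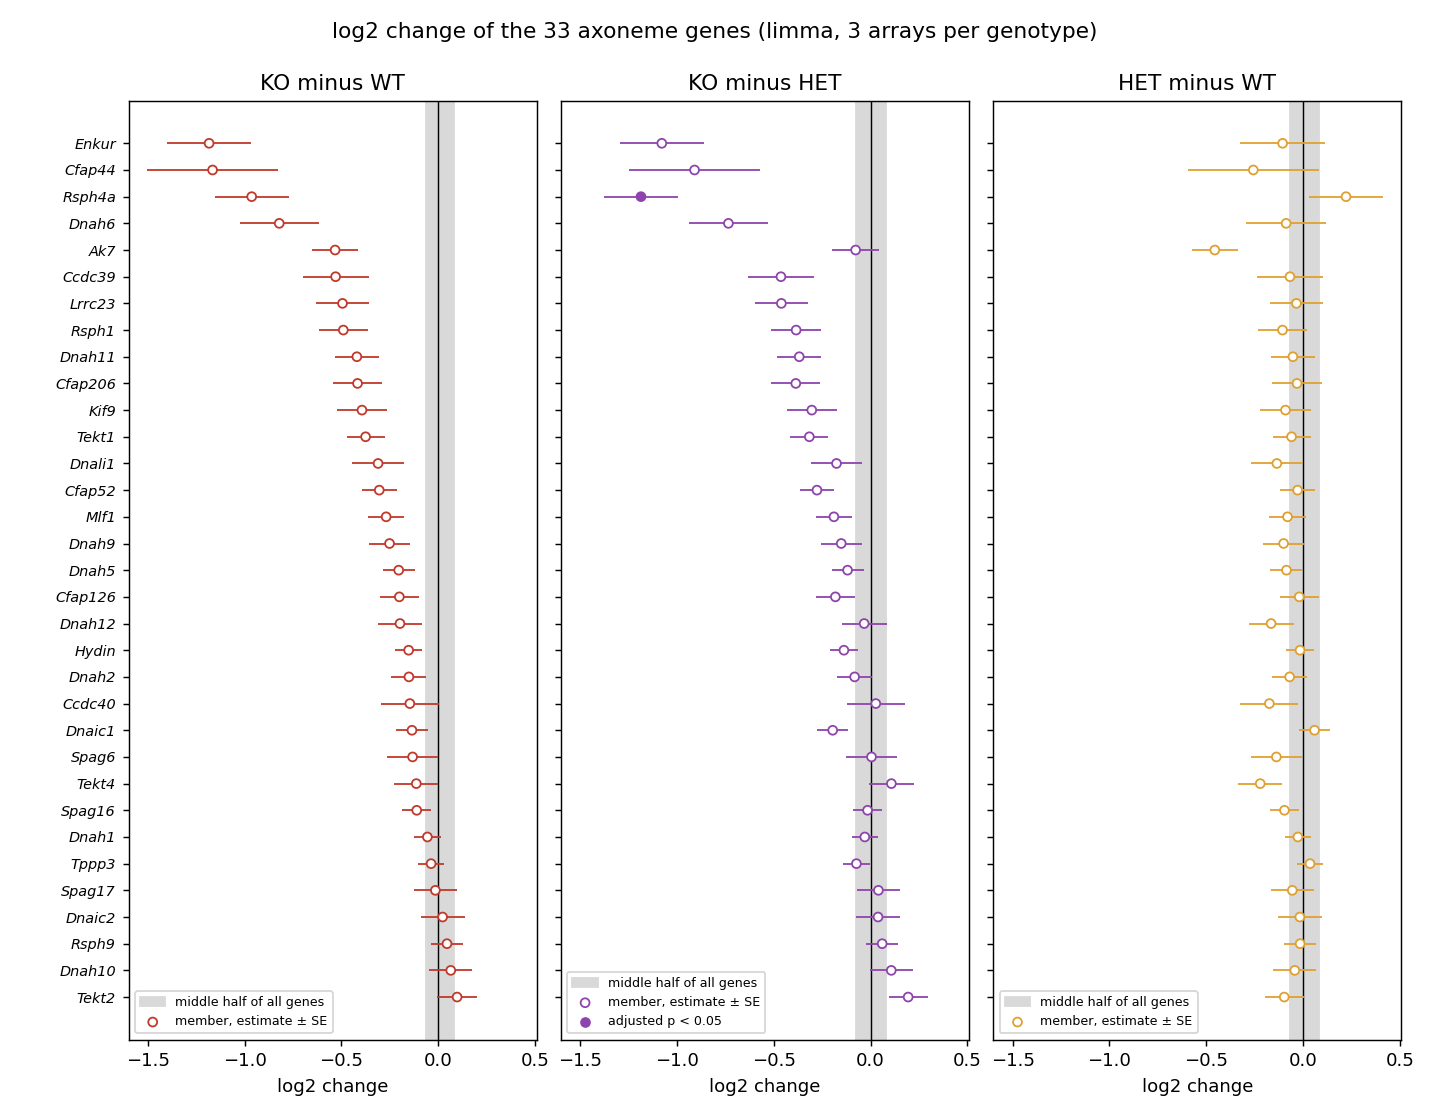
log2 change of each of the 33 genes (points, with lines for the SE of the limma fit, 3 arrays per genotype) in KO minus WT, KO minus HET and HET minus WT, in the order of the KO minus WT estimate; the grey band spans the interquartile range over all genes, and a filled point marks an adjusted p under 0.05. Enkur, Cfap44, Rsph4a and Dnah6 lay furthest below 0 in both KO panels, Rsph4a is the filled point of KO minus HET, and in HET minus WT Ak7 lay lowest, at -0.46.

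In KO against HET, 25 of 33 genes lay below 0 (48.9% of all genes), with a median of -0.15 and 13 lower at an unadjusted p under 0.05 (3.3% of all genes). The gene that passed in this comparison was Rsph4a, where 0.206% of all genes passed in either direction, and 13 genes had every KO array below every HET array (3.09% of all genes). In HET against WT, 30 of the 33 lay below 0 (48.5% of all genes), with a median of -0.07, and 0 passed by limma with Benjamini-Hochberg, as did 0% of all genes. In that comparison 1 gene, Ak7, was lower at an unadjusted p under 0.05, against 1.66% of all genes. KO against WT and HET against WT share the WT arrays, so their values are set side by side and not related to each other. Set against the mean of WT and HET, 2 of the 33 genes fell in KO, Rsph4a and Enkur, where 0.497% of all genes passed in either direction.

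The promoters of the set were searched for the letters that RFX and forkhead factors are known to bind, since these factors are the textbook regulators of motile cilium genes. RefSeq (GRCm38.p6) promoters, from 250 bases before to 50 after a start, were in the table used for 30 of the 33 genes (all but Rsph1, Rsph4a and Tppp3), and both strands were read. A spaced X-box (GTTGC, any 3 bases, GNAAC, or the reverse complement GTTNC, any 3 bases, GCAAC) was in the promoters of 6 of the 30 genes (20.0%; Dnah6, Dnah9, Dnaic1, Dnaic2, Tekt2 and Tekt4), against 0.788% of 27025 genes. The short X-box GTTGCCA, which is only a part of the X-box, was in 7 genes (23.3%), against 5.02% of all genes. These were Cfap44, Dnah10, Hydin, Kif9, Lrrc23, Mlf1 and Tekt1, and none of them held the spaced form. The forkhead letters GTAAACA were in 2 (6.67%; Ak7 and Mlf1), against 4.05% of all genes. Of 55 other axonemal genes with a promoter, 8 (14.5%) held the spaced and 15 (27.3%) the short X-box. Shown is the promoter of Enkur, the gene with the largest KO minus WT difference. Those of Dnah6, Lrrc23 and Tekt1 are shown because they hold a match and these genes were among the 8 with the smallest p. Dnah6 holds a spaced X-box, while Lrrc23 and Tekt1 hold the short X-box. Also shown is that of Dnaic2, which holds a spaced X-box and had a mean difference of 0.02 between KO and WT. The capitals mark the X-box matches, and each sequence runs 5′ to 3′ on the gene's own strand.
Enkur (chr2:21205316-21205615, minus strand, none of the 3 motifs): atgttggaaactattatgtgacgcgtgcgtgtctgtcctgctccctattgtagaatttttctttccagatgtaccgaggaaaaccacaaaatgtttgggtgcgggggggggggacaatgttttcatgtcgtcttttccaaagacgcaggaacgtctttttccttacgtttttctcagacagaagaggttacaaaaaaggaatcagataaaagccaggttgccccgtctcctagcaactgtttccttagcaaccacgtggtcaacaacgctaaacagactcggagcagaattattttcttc
Dnah6 (chr6:73221582-73221881, minus strand, spaced X-box): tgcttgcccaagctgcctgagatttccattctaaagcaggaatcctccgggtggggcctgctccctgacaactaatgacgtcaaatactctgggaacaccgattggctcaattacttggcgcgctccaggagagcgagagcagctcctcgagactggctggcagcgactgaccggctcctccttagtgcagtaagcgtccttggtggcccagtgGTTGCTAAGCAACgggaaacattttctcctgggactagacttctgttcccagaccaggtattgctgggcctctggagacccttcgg
Lrrc23 (chr6:124779678-124779977, minus strand, short X-box on each strand): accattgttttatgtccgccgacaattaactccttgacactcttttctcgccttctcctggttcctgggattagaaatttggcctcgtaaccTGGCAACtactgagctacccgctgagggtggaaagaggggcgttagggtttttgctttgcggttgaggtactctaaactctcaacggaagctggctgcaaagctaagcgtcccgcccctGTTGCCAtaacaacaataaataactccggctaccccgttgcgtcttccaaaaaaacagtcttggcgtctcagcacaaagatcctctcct
Tekt1 (chr11:72361833-72362132, minus strand, short X-box): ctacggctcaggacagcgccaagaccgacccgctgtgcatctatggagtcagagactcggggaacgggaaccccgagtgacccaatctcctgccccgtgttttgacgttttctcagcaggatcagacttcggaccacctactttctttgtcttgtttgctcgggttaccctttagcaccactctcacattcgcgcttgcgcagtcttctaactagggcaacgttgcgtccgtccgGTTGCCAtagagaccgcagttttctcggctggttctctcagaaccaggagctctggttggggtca
Dnaic2 (chr11:114727169-114727468, plus strand, spaced X-box): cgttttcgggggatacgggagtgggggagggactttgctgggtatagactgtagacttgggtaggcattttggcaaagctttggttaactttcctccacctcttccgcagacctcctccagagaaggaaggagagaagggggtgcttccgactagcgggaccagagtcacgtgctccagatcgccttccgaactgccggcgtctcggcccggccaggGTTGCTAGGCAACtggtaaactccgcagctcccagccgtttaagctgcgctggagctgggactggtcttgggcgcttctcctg
The spaced X-box of Dnah6 began 36 bases before the start and that of Dnaic2 33 bases before it. The short X-box of Tekt1 began 15 bases before the start, and the 2 short matches of Lrrc23 began 158 and 39 bases before it. Tekt1 has another start in the table whose promoter holds none of the motifs. A match describes letters and shows no binding. Only exact letters with a fixed gap were searched, so a promoter without a match may hold a looser form. In Enkur, gtttccttagcaac holds both ends of the spaced X-box with a longer gap between them. The 6 genes with a spaced X-box ran from Dnah6 at -0.82 to Tekt2 at 0.10 in KO minus WT.

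Of the outer dynein arm genes, Dnah11, Dnah9 and Dnah5, which encode heavy chains of the motor, lay lower in KO, and the intermediate chains Dnaic1 and Dnaic2 lay closer to 0. Dnah11 read 4.73, 4.90 and 4.77 on the KO arrays, 5.30, 5.27 and 4.93 on the HET arrays, and 5.38, 5.16 and 5.12 on the WT arrays. Every KO value lay below every HET and WT value, with HET replicate 3 the nearest. The log2 change in KO minus WT was -0.42 (SE 0.11) and did not pass by limma with Benjamini-Hochberg (adjusted p = 0.304). Dnah9 lay at -0.25 and Dnah5 at -0.20, each with an unadjusted p under 0.05, and Dnaic1 at -0.14. Dnaic2, shown because its probe set had the highest mean of the 5, read 5.85, 6.31 and 5.90 in KO, 6.05, 5.91 and 5.99 in HET, and 6.04, 5.99 and 5.97 in WT. KO replicate 2 lay above every other array and the other 2 KO arrays below all of them, so its mean difference of 0.02 (SE 0.11) had a KO SD of 0.25 beside it and turned to -0.12 without KO replicate 2. The 5 genes had a median of -0.20 in KO minus WT and -0.05 in HET minus WT, and 0 passed in either.

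The inner dynein arm genes spanned most of the range of the set. Dnah6 (probe set 10545502, chromosome 6), an inner arm heavy chain, read 5.20, 4.84 and 4.55 in KO, 5.94, 5.69 and 5.16 in HET, and 5.83, 5.74 and 5.48 in WT. All KO values lay below all WT values, while HET replicate 3 lay within the KO range. The log2 change in KO minus WT was -0.82 (SE 0.21, a 1.77-fold lower geometric mean) and did not pass by limma with Benjamini-Hochberg (adjusted p = 0.221). Its 3 probe sets gave -0.82, -0.63 and -0.50. Cfap44, a protein that tethers an inner arm to its doublet in Tetrahymena and Chlamydomonas, read 6.98, 6.63 and 5.65 in KO, 7.70, 7.66 and 6.63 in HET, and 7.64, 7.54 and 7.58 in WT. The WT arrays had an SD of 0.05, KO replicate 3 stood lowest, and HET replicate 3 read like KO replicate 2. The mean difference, -1.17 in KO minus WT, was the next largest of the set after Enkur, but with an SE of 0.34 it did not pass by limma with Benjamini-Hochberg (adjusted p = 0.383), and it was -0.78 without KO replicate 3.

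The other inner arm genes had estimates closer to 0. Dnali1, a light intermediate chain, lay at -0.31 (unadjusted p under 0.05), and the heavy chains Dnah12, Dnah2 and Dnah1 lay at -0.20, -0.15 and -0.06 in KO minus WT. Dnah10 had 5 probe sets with log2 changes between -0.08 and 0.07 and was the 1 inner arm gene with a KO mean above the WT mean, which turned to -0.06 without WT replicate 3. Dnah12 had 2 probe sets, at -0.20 and -0.36. The 7 inner arm genes had a median of -0.20 in KO minus WT and -0.09 in HET minus WT, with 0 passing in either.

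Radial spoke genes had the lowest median of the structures, -0.49 in KO minus WT. In 4 of the 5 the KO values were all lower than those of both other genotypes. The same held for 12 of the 33 genes and for 348 of all 19938 genes. The division by structure was made by hand with earlier results known, and no structure was tested. Rsph4a (probe set 10362472, chromosome 10), a protein of the spoke head, read 5.42, 5.04 and 4.71 in KO, 6.19, 6.61 and 5.93 in HET, and 5.93, 6.04 and 6.09 in WT. The highest KO array lay 0.51 below the lowest HET or WT array, and the HET mean was above the WT mean. Rsph4a fell 2.28-fold in KO against HET, by 1.19 on the log2 scale (SE 0.19), with an adjusted p of 0.0437 by limma and the Benjamini-Hochberg method. Set against WT and HET together it fell by 1.07 (SE 0.165, adjusted p = 0.0193 in the same limma fit). In KO against WT it lay at -0.96 (SE 0.19) and did not pass (adjusted p = 0.0771), but did with quantile normalization (0.0472). The call against HET was lost without any 1 of 8 arrays, with adjusted p between 0.0502 and 0.232, and held without KO replicate 1 (0.0365). It was also lost with only the KO and HET arrays in the fit (adjusted p = 0.316), with array weights (0.136), with Xist as a covariate (0.0661), with median centring (0.0625) and with every probe set tested (0.0504). The call against the mean of WT and HET was lost without KO replicate 2 or 3 (adjusted p = 0.0855 and 0.116) and without any 1 WT array (0.0614 to 0.0648).

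Rsph1, another spoke head protein, read 5.08, 5.12 and 5.23 in KO, 5.68, 5.67 and 5.24 in HET, and 5.60, 5.81 and 5.48 in WT. HET replicate 3 lay just above the highest KO array and the other HET arrays among the WT arrays. Lrrc23, a leucine-rich repeat protein of a spoke head, read 5.35, 5.14 and 4.85 in KO, 5.80, 5.53 and 5.38 in HET, and 5.69, 5.50 and 5.63 in WT. They lay 1.40-fold and 1.41-fold lower in KO than in WT (log2 changes -0.49, SE 0.13, and -0.49, SE 0.14), and neither passed by limma with Benjamini-Hochberg (adjusted p = 0.271 and 0.345). Cfap206, placed at the base of a spoke in Tetrahymena, lay at -0.42 (SE 0.13) in KO minus WT. Rsph9, whose probe set had the highest mean of the spoke genes, did not follow the other 4 and read 7.02, 6.88 and 6.88 in KO, 7.01, 6.81 and 6.78 in HET, and 6.88 on each of the 3 WT arrays. Its log2 change was 0.05 (SE 0.08). The identical WT values are as deposited.

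**Figure D2:**
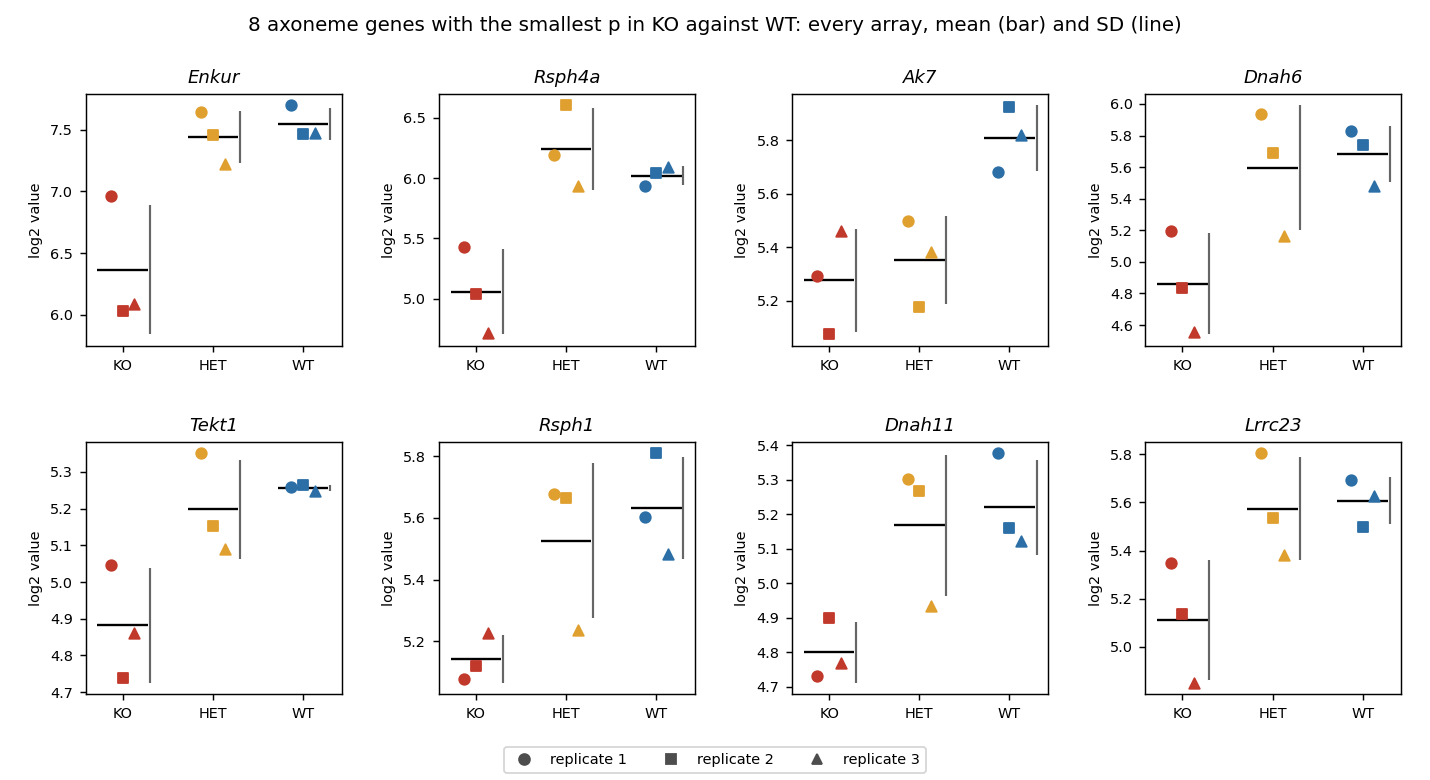
log2 value on every array of the 8 axoneme genes with the smallest p in KO against WT (circle, square and triangle for replicates 1, 2 and 3; horizontal bars, genotype means; vertical lines, SD, n = 3), with KO left, HET in the middle and WT right and an axis of its own for each gene. In every panel the 3 KO points lie below the 3 WT points; HET replicate 3 lies lowest of the HET points in all panels but Ak7, where all 3 HET points lie below the WT points.

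The central pair genes all had KO means below their WT means, with a median log2 change of -0.13. Kif9, a kinesin of the central apparatus, read 5.82, 5.67 and 5.29 in KO, 5.87, 5.95 and 5.87 in HET, and 5.93, 6.16 and 5.87 in WT. Every KO value lay below every HET and WT value, with KO replicate 1 only 0.05 short of them. The log2 change in KO minus WT was -0.39 (SE 0.13) and did not pass by limma with Benjamini-Hochberg (adjusted p = 0.523). Hydin, a large protein of a central pair projection, lay at -0.15 with every KO array below every WT array. Spag16 and Spag17, at -0.11 and -0.01, read below the lower quartile of all 9 arrays, where a change might not be seen, and Spag17 turned to 0.10 without KO replicate 2. Spag6 lay at -0.13 and at 0.04 without KO replicate 3. Spag6 has a close paralog, Spag6l, with a probe set of its own that read 6.60, 6.09 and 5.73 in KO, 6.60, 6.85 and 7.01 in HET, and 6.60, 6.67 and 6.54 in WT. Spag6l lay at -0.46 in KO minus WT and -0.68 in KO minus HET and passed in neither, and how far the probes of each gene read the other is uncertain.

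Ccdc39 and Ccdc40 encode the partners of the ruler. Ccdc39 read 8.02, 7.51 and 7.33 in KO, 7.82, 8.31 and 8.13 in HET, and 8.21, 8.15 and 8.10 in WT. The KO arrays lay below the WT arrays, but KO replicate 1 lay within the HET range. The log2 change was -0.53 (SE 0.17) in KO minus WT and did not pass by limma with Benjamini-Hochberg (adjusted p = 0.503). Ccdc40 lay at -0.15 (SE 0.15) in KO minus WT and at 0.03 in KO minus HET.

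Among the tektins and other proteins inside the doublets, Enkur had the largest difference. Enkur (probe set 10480414, chromosome 2), an inner protein of the doublet wall, read 6.97, 6.03 and 6.09 in KO, 7.64, 7.46 and 7.22 in HET, and 7.70, 7.47 and 7.47 in WT. KO replicate 1 lay nearest the other genotypes, 0.26 below the lowest HET array, and the other 2 KO arrays lay over 1 log2 unit below every HET and WT array. Enkur lay 2.27-fold lower in KO than in WT (log2 change -1.18, SE 0.22) and 2.11-fold lower than in HET (-1.08, SE 0.22), and neither passed by limma with Benjamini-Hochberg (adjusted p = 0.0544 and 0.145). Without KO replicate 1 the change against WT was -1.48 and passed (adjusted p = 0.0028), and it also passed with quantile normalization (0.0377), with the dimmest 1 in 3 genes left out (0.0400) and with trend and robust settings (0.0492). Against the mean of WT and HET it fell by 1.13 on the log2 scale (SE 0.19), with an adjusted p of 0.0295 by limma and the Benjamini-Hochberg method. That call was lost without KO replicate 2 or 3 (adjusted p = 0.125 and 0.195), HET replicate 1 or 2 (0.0625 and 0.109) or any 1 WT array (0.0793 to 0.0951), and with array weights (0.101) or Xist as a covariate (0.0731).

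Tekt1, a filament protein of the doublet lumen, read 5.05, 4.74 and 4.86 in KO, 5.35, 5.15 and 5.09 in HET, and 5.26, 5.26 and 5.25 in WT. Every KO value lay below every HET and WT value, and the WT values were nearly equal. Its log2 change was -0.37 (SE 0.10) in KO minus WT and did not pass by limma with Benjamini-Hochberg (adjusted p = 0.271). The other tektins did not share this order: Tekt2 lay at 0.10 in KO minus WT, with KO replicate 1 the highest of all arrays and -0.02 without it, and Tekt4 at -0.11, below the lower quartile of all 9 arrays. Cfap52, an inner junction protein, lay at -0.30 with every KO array below every HET and WT array, and Cfap126, known as Flattop, at -0.20 with 8 of 9 arrays below the lower quartile. The 6 genes had a median of -0.25 in KO minus WT and -0.08 in HET minus WT.

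In Ak7 the HET arrays lay with the KO arrays, below the WT arrays. Ak7, an adenylate kinase of motile cilia, read 5.29, 5.07 and 5.46 in KO, 5.50, 5.18 and 5.38 in HET, and 5.68, 5.92 and 5.82 in WT. Every KO and every HET value lay below every WT value. The log2 change was -0.53 (SE 0.12) in KO minus WT and -0.46 (SE 0.12) in HET minus WT, and neither passed by limma with Benjamini-Hochberg (adjusted p = 0.146 and 0.993). It was the 1 gene of the 33 with HET and WT arrays that did not overlap, a share like the 3.1% of all genes for HET lower. Mlf1 lay at -0.27 (SE 0.09) in KO minus WT. Tppp3, a tubulin-binding protein, lay at -0.04 and read 5.44 on each WT array.

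**Figure D3:**
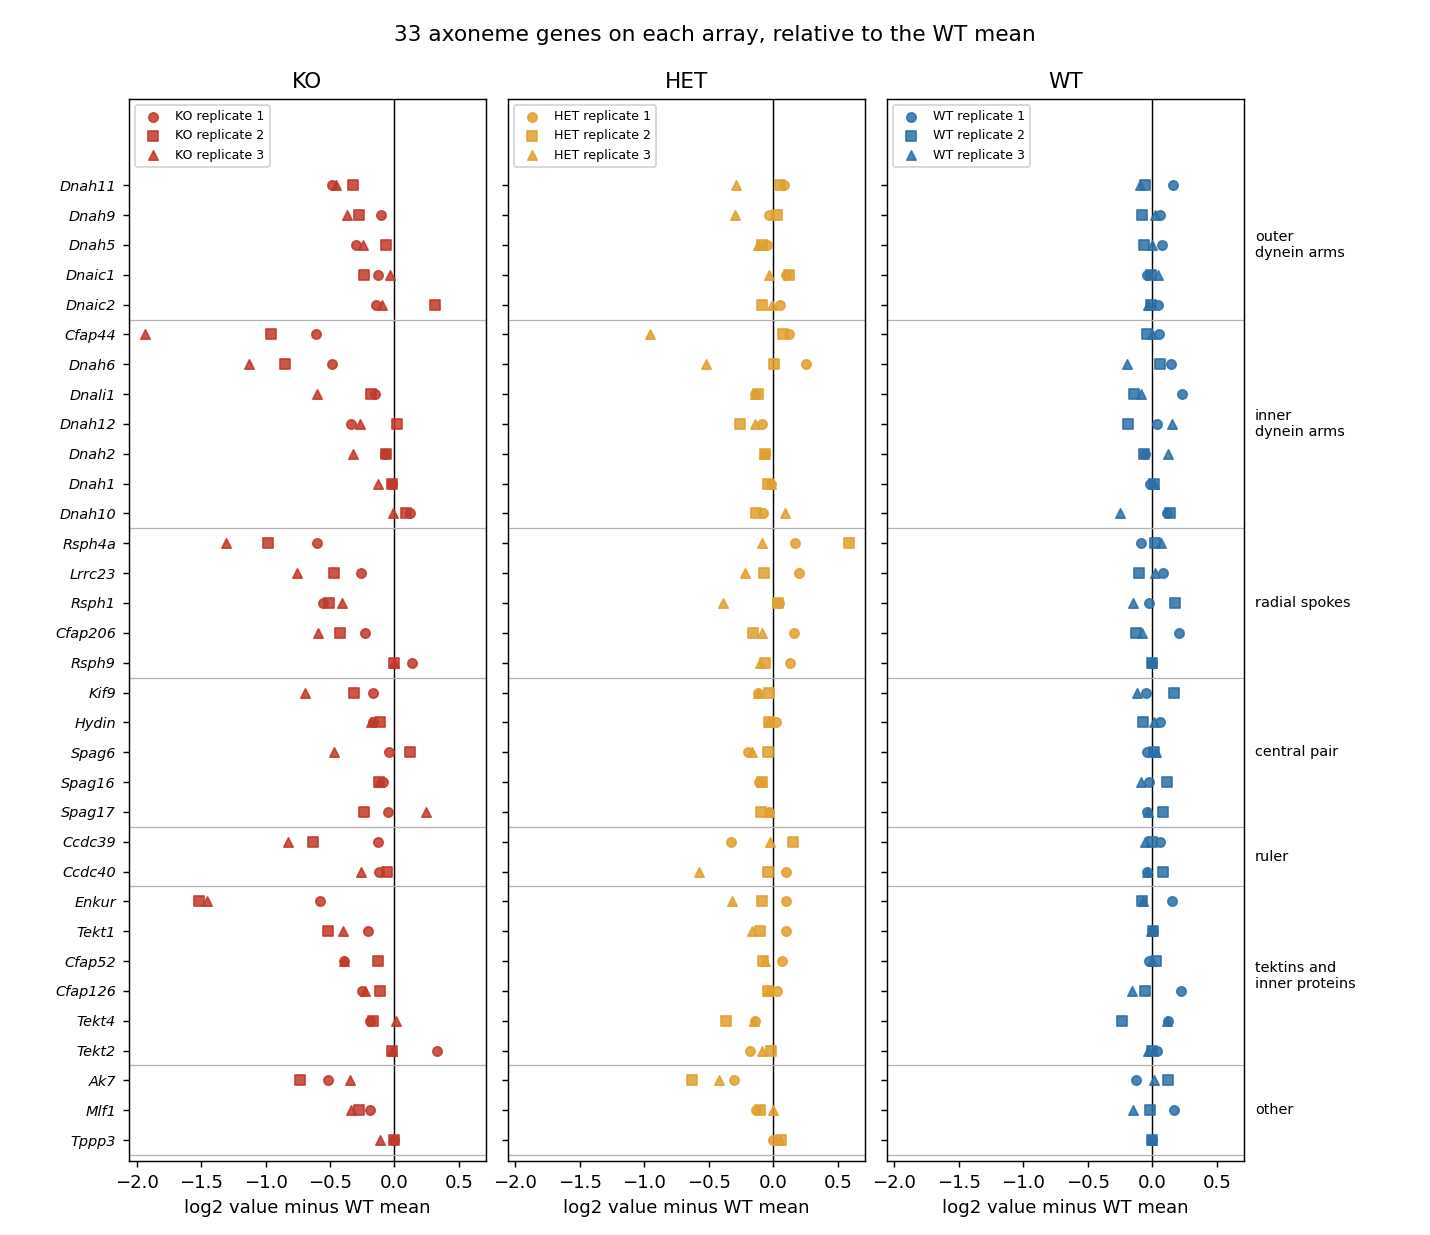
Deviation of each of the 33 genes from its WT mean (log2 scale) on each array, with KO left, HET in the middle and WT right and genes grouped by structure; circles, squares and triangles are replicates 1, 2 and 3. KO points lie mostly left of 0, with KO replicate 3 the lowest KO array in 18 genes, and the HET points furthest left in Cfap44, Ccdc40, Dnah6 and Rsph1 are those of HET replicate 3.

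The arrays of a genotype differed across the set. The mean level of the 33 genes was 5.42, 5.34 and 5.20 on the KO arrays, 5.62, 5.58 and 5.46 on the HET arrays, and 5.67, 5.62 and 5.60 on the WT arrays. Every KO array lay below every HET array, and HET replicates 2 and 3 lay below the WT range. KO replicate 3 was the lowest KO array in 18 of the 33 genes (31.7% of all genes) and KO replicate 1 the highest in 18 (26% of all genes). Ties were counted for the lower-numbered array, as in Dnah1 and Tppp3, where KO replicates 1 and 2 shared the highest value. HET replicate 3 lay below the WT mean in 31 genes, HET replicate 2 in 24 and HET replicate 1 in 17, where 50.7%, 50.4% and 46.3% of all genes did. Without HET replicate 3 the median of the 33 genes in HET minus WT was -0.01, with 21 of 33 below 0, and without KO replicate 3 their median in KO minus WT was -0.18. The spread within a genotype also differed, with a median SD of the 33 genes of 0.15 in KO, 0.09 in HET and 0.08 in WT, against 0.13, 0.12 and 0.08 over all genes.

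Other genes of the axoneme also mostly lay lower in KO. Of 68 measured axonemal components outside the set, 53 lay below 0 in KO minus WT, with a median of -0.18, and 2 fell, where 0.451% of all genes passed. Iqcg, a subunit of the complex that links neighbouring doublets, read 4.82, 4.14 and 4.004 in KO, 5.50, 5.63 and 5.39 in HET, and 5.64, 5.72 and 5.34 in WT. All KO arrays lay below all HET and WT arrays, and Iqcg fell by 1.24 on the log2 scale against WT (SE 0.19) and by 1.19 against HET, with adjusted p of 0.0197 and 0.0437 by limma and the Benjamini-Hochberg method. Nme5, a radial spoke protein, read 7.02, 6.18 and 6.39 in KO, 7.46, 7.54 and 7.34 in HET, and 7.57, 7.56 and 7.48 in WT, and fell by 1.01 on the log2 scale against WT (SE 0.17), with an adjusted p of 0.0387 by limma and the Benjamini-Hochberg method. As in Enkur, KO replicate 1 lay nearest the other genotypes in both genes. KO replicate 1 was also the KO array with low Xist, so within KO a difference by Xist and one by replicate cannot be told apart. The call of Iqcg against WT was lost without KO replicate 2 or 3, HET replicate 2 or any 1 WT array (adjusted p between 0.0516 and 0.132), its call against HET without any 1 array but KO replicate 1 (0.075 to 0.297), and that of Nme5 against WT without any 1 array but KO replicate 1 (0.0706 to 0.208). With only the arrays of the genotypes compared in the fit, the limma adjusted p was 0.149 for Iqcg against WT, 0.268 for Iqcg against HET and 0.212 for Nme5 against WT. The call of Iqcg against HET was also lost with array weights (adjusted p = 0.175), Xist as a covariate (0.0665), median centring (0.0625) and every probe set tested (0.0504), and that of Nme5 against WT with Xist as a covariate (0.0649) and median centring (0.0608). Without both HET replicate 1 and KO replicate 2 these 3 adjusted p were 0.129, 0.158 and 0.136. Dnajb13, a spoke chaperone, lay at -0.68 (SE 0.13) and did not pass, with a limma adjusted p of 0.0544.

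Genes that build the axoneme or direct the ciliated fate had medians closer to 0. Of 18 measured genes of dynein arm assembly and docking, 14 lay below 0 in KO minus WT (47.3% of all genes), with a median of -0.10, and 0 passed. The smallest p were those of Daw1 (-0.47, SE 0.16), Ccdc114 (-0.30, SE 0.11) and Pih1d2 (-0.20, SE 0.09). Of 19 regulators of the multiciliated fate, 14 lay below 0, with a median of -0.05, and 0 passed. In lists of this size, 0 calls is close to the share of all genes that passed in either direction, 0.451%. Deup1, a scaffold of the structure that multiplies centrioles, lay at -0.81 (SE 0.19) with a limma adjusted p of 0.17 and every KO array below every HET and WT array. Myb lay at -0.33 (SE 0.11) and Rfx3, an X-box-binding factor, at -0.31 (SE 0.11). Foxj1 read 5.48, 5.50 and 5.33 in KO, 5.62, 5.47 and 5.46 in HET, and 5.48, 5.55 and 5.60 in WT. The Foxj1 arrays of the genotypes overlapped, with a log2 change of -0.11 (SE 0.08) in KO minus WT.

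**Figure D4:**
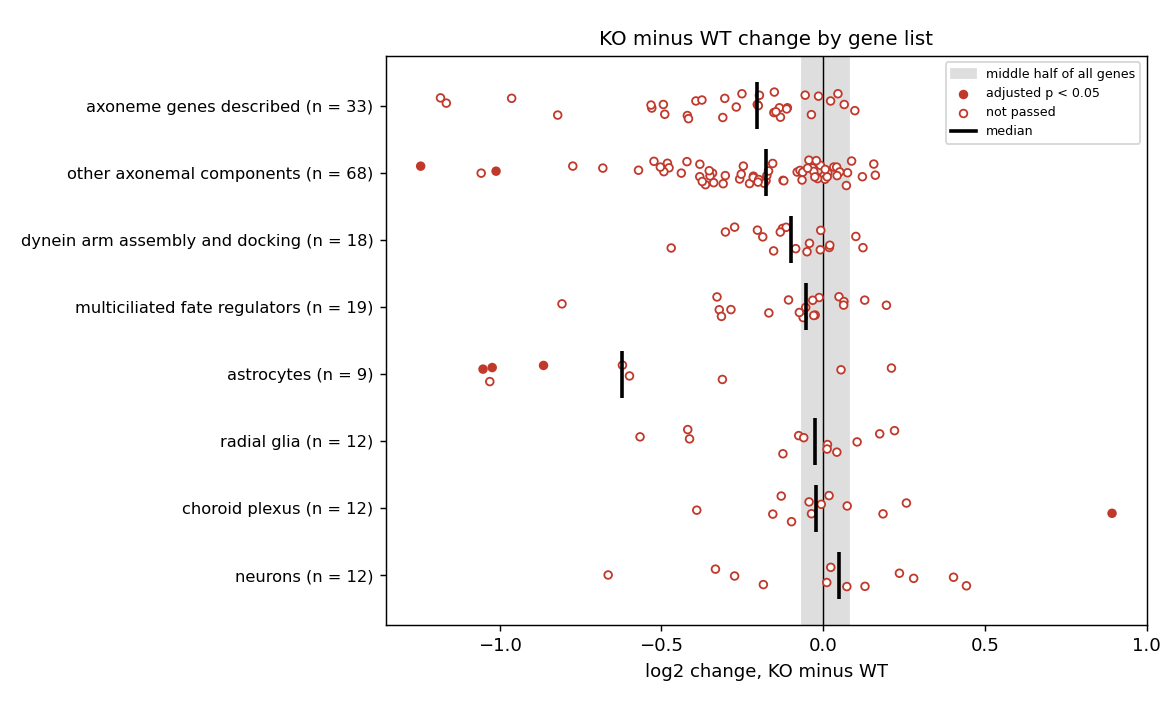
log2 change in KO minus WT of each gene (points; filled, adjusted p under 0.05) in the 33 axoneme genes, 3 lists of other cilium genes and 4 lists of cell type markers, with the median of each list as a black bar and the interquartile range of all genes as a grey band. The medians of the 33 genes and of the other axonemal components lie at -0.20 and -0.18, that of the astrocyte markers at -0.62 and those of radial glia, choroid plexus and neurons within 0.05 of 0.

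Lists of markers named for cell types were read beside the set, and which cells of the zone expressed them was not measured. Of 9 astrocyte markers 7 lay below 0 in KO minus WT (47.3% of all genes), with a median of -0.62. Of the 9, 3 fell (Apoe, Clu and Aqp4), where 0.451% of all genes passed in either direction. These calls were lost in 3, 5 and 10 of the 21 alternatives, each of them without WT replicate 1 and without WT replicate 2, with limma adjusted p of up to 0.0626 for Apoe, 0.0929 for Clu and 0.169 for Aqp4. The mean level of the 9 markers was 7.04 to 7.10 on the KO arrays, 7.44 to 7.83 on the HET arrays and 7.56 to 7.75 on the WT arrays. Astrocyte markers, like the axoneme genes, thus read lowest on the KO arrays. The markers read 7.04, 7.10 and 7.08 on KO replicates 1, 2 and 3. These levels were too close for their order to be set beside that of the axoneme genes. The part of the astrocyte markers in the result was not tested. The choroid plexus, whose epithelium also carries motile cilia, had 12 measured markers with a median of -0.02 and mean levels of 5.47 to 5.60 in KO, 5.32 to 5.58 in HET and 5.46 to 5.50 in WT. Of these markers 1, F5, passed and rose. Radial glia markers lay below 0 in 6 of 12 with a median of -0.02, and neuron markers in 4 of 12 with a median of 0.05, with 0 passing in either.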

How the data were processed

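The authors deposited 1 table of log2 values for 28940 probe sets on 9 arrays; RMA, affy and limma are the tools that the submitters' processing notes give, with no versions. RMA includes a background correction, a normalization between arrays and a summary of the probes of a set, and this summary can give several arrays the same value, which makes their spread look small. The annotation and build used there are not given in the sources used here, and detection calls were not used. Amplification before hybridization used a NuGEN kit, per the labels' protocols.

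Probe sets were named from the platform annotation, in which 21789 had 1 symbol; the probe set with the highest mean was kept per gene, which left 19938 genes. The deposited log2 values were fitted with limma 3.58.1 under R 4.3.3, as a linear model with moderated two-sided tests, with 1 mean per genotype over all 9 arrays and Benjamini-Hochberg adjustment over all genes. A gene was called at an adjusted p under 0.05. On simulated data for KO against WT over 19938 genes, 93% of 100 genes changed by 1 log2 unit and 42% of 100 genes changed by 0.5 were called, and 8 unchanged genes. With 3 arrays a genotype, the number of arrays limits the precision.

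The 33 genes, their division by structure, the other lists and the contrasts were chosen with earlier results of these data known, so no list was tested; counts and medians stand beside those over all genes. Values on every array are given for genes called in any contrast, for the 8 with the smallest p in KO against WT and for the probe set with the highest mean in each structure. Other lists contribute their called genes or up to 3 with the smallest p. Gene lists covered dynein arm assembly and docking, other axonemal components, regulators of the multiciliated fate, and markers of radial glia, choroid plexus, neurons and astrocytes; markers of endothelium and pericytes, microglia, red blood cells, and meninges and fibroblasts had medians of -0.02, 0.01, -0.07 and -0.09 in KO minus WT, with 1 call, in the last. Promoter sequences are those of RefSeq (GRCm38.p6), searched in Python 3.11.15.

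The alternatives varied the fit (a replicate block, only the genotypes compared, trend and robust eBayes, array weights, Xist as a covariate), the genes tested (without the dimmest 1 in 3, with probe sets averaged or all of them tested), the scaling (quantile or median), the threshold (0.10) and the arrays (each omitted in turn, and HET replicate 1 together with KO replicate 2).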

Additional observations from a re-analysis of the deposited data

How the results depend on the processing

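The median of the 33 genes stayed below 0 in all 21 alternatives, between -0.31 and -0.18 in KO minus WT, -0.20 and -0.12 in KO minus HET, and -0.09 and -0.01 in HET minus WT, and 0 of the 33 genes passed in HET against WT in any of them. Calls of single genes did not hold in this way; where a cause is not named, it was not tested. In KO against WT, 0 of the 33 were called, against 2 with the replicate block, with quantile normalization or at an adjusted p under 0.10, 1 with eBayes trend and robust settings or the dimmest genes left out, and 0 to 1 without 1 array (1 without KO replicate 1). In KO against HET, 1 was called, against 0 with the replicate block, the compared arrays alone, array weights, every probe set, median centring, Xist as a covariate, or HET replicate 1 and KO replicate 2 left out, and 0 to 2 without 1 array (2 without KO replicate 1, 0 without any other). In KO against the joint WT and HET mean, 2 were called, against 1 with array weights or Xist, 0 with HET replicate 1 and KO replicate 2 left out, and 0 to 4 without 1 array (0 without KO replicate 2 or 3 or any 1 WT array, 1 without HET replicate 1 or 2, 4 without HET replicate 3).

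Leaving out the dimmest 1 in 3 genes kept 21 of the 33, so that 17, 16 and 18 had estimates below 0 in KO minus WT, KO minus HET and HET minus WT. The count lower at an unadjusted p under 0.05 in KO against HET, 13, was 7 with array weights, 5 with HET replicate 1 and KO replicate 2 left out, and 8 to 14 without 1 array (8 without HET replicate 1 or 2). Over all genes, the 90 calls of KO against WT became 33 with the compared arrays alone, 151 with array weights, 50 with HET replicate 1 and KO replicate 2 left out, and 23 to 77 without 1 array. The 41 of KO against HET became 19 with the replicate block, 8 with the compared arrays alone, 21 with median centring, 24 with Xist and 12 to 75 without 1 array, and the 99 of KO against the joint WT and HET mean became 48 to 102 without 1 array.

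Genes near 0 changed sign in KO minus WT. Dnaic2 lay at -0.073 with array weights, -0.027 with Xist, -0.12 with HET replicate 1 and KO replicate 2 left out, and -0.12 to 0.11 without 1 array. Spag17 lay at 0.00087 with median centring, 0.10 with those 2 arrays left out and -0.14 to 0.10 without 1 array. Without 1 array Tekt2 ranged from -0.017 to 0.16, Spag6 from -0.26 to 0.036 and Dnah10 from -0.059 to 0.13. Same-numbered arrays of different genotypes deviated from their genotype means with correlations of -0.34 to 0.06. The deviations of a genotype sum to 0 over its few arrays, so these correlations cannot show whether the numbers pair the arrays. With the replicate block, Enkur and Dnah6 passed in KO against WT (adjusted p = 0.0181 each by limma with Benjamini-Hochberg) and Rsph4a in KO against HET (0.0682) and Nme5 in KO against WT (0.0504) did not. Spag16, Spag17, Tekt4 and Cfap126 read below the lower quartile on 8 or 9 of the arrays, which limits what their values can show.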

Other observations

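Cfap54, a component of the central apparatus outside the 33 genes that was picked out after its values were seen, read 7.04, 6.39 and 5.44 on the KO arrays, 7.41, 7.46 and 7.15 on the HET arrays, and 7.63, 7.27 and 7.15 on the WT arrays. Every KO array lay below every HET and WT array, KO replicate 1 by the least and KO replicate 3 by the most, the order of the KO arrays that Cfap44, Dnah6 and Rsph4a also had. Its log2 change in KO minus WT was -1.06 (SE 0.32) and did not pass by limma with Benjamini-Hochberg (adjusted p = 0.406).

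Deposited values were often identical on arrays of a genotype. At least 2 arrays shared a value in 4 of the 33 genes in KO, 7 in HET and 3 in WT, and in 12.99%, 14.9% and 21.2% of all genes. Rsph9 and Tppp3 held 1 value on all 3 WT arrays.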
